A study of Mus musculus with 4 samples.

Results

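A subset of the CD8+ T cells of tumor-draining lymph nodes was picked out by the transcripts in each cell: Tcf7 and Izumo1r had to be present and Ly6a absent. A member carried at least 2 Tcf7 UMIs (unique molecular identifiers, each standing for 1 captured transcript), at least 1 Izumo1r UMI and no Ly6a UMI. It also carried at least 1 UMI of Cd3e or Cd3d and at least 1 of Cd8a or Cd8b1, no Trdc, H2-Aa or Mki67, at most 2 UMIs of Gzma and Gzmb together, and at most 1 each of Tnfrsf4 and Xcl1. These clauses held for 5785 of 43971 filtered cell barcodes (13.2%), of which 1782 came from the Control library, 1588 from RT, 1557 from αPD-L1 and 858 from RT + αPD-L1. They are called gated cells here. Because the gate was read from the transcripts themselves, contrasts of gated with other cells are given as descriptions without a test.

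The cells were CD8+ PD-1+ CD44+ T cells sorted from the tumor-draining lymph nodes (TdLN) of female C57BL/6 mice, bought at 6 weeks of age, that bore B16F10GP tumors, a B16F10 melanoma line expressing the glycoprotein of lymphocytic choriomeningitis virus as a model tumor antigen. Mice were untreated (Control), had the tumor irradiated (RT), received an antibody against PD-L1 (αPD-L1) or received both (RT + αPD-L1), and the treated groups were sampled on day 7. The labels give no day for Control. Each treatment was 1 droplet library pooling 5 mice told apart by hashtag antibodies, so a treatment and its library cannot be told apart. All tumors came from 1 line and all mice from 1 strain.

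Tcf7 encodes TCF-1, the transcription factor that marks stem-like CD8+ T cells, which renew themselves and give rise to effector-like progeny and which respond when the PD-1 pathway is blocked. Izumo1r encodes folate receptor 4, a surface protein known from regulatory and antigen-experienced, hyporesponsive T cells. Ly6a encodes Sca-1, a surface protein that is itself induced by interferon. Type I interferon signals through a complex that contains STAT2 and IRF9 and binds interferon-stimulated response elements (ISREs), and turns on a shared antiviral program in nearly every cell type.

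Of the gated cells, 5219 carried 1 hashtag and were given to a mouse, between 26 (RT mouse 4) and 534 per mouse, with 227214 to 4323729 UMIs summed per mouse. Gated cells had a median of 7261 UMIs and 2360.0 genes, against 6547 UMIs and 2226 genes in the other filtered cells. Several hashtags were found on 8.82% of gated and 8.14% of other barcodes, and these were left out of values per mouse. Of 994 barcode sequences found in at least 2 libraries, 19 belonged to gated cells. Levels are counts per 1e6 UMIs (CPM) of the gated cells of a mouse.

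Both sides of each threshold were well filled. With the other clauses held, 922 cells had 1 Tcf7 UMI, just outside, 971 had 2 and 984 had 3. For Izumo1r, 7812 cells had none, 2413 had 1, 1242 had 2 and 720 had 3. For Ly6a, 5785 had none, 737 had 1 and 305 had 2. A cell without an Izumo1r UMI may have been missed by shallow sampling, so the cells just outside were kept as comparators: 7812 Izumo1r-zero twins that met every clause except Izumo1r, and 1814 Ly6a-positive twins that met every clause except Ly6a.

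The remaining markers that came with the gate are described first, and markers of other cells were then looked for. H2-Oa, the alpha chain of the MHC class II modulator DO, averaged 136 ± 13.0 against 74.2 ± 10.5 CPM in other cells (SD over 20 mice). The protease gene Capn3 averaged 63.4 ± 12.2 against 30.4 ± 7.96 CPM, and Ccr7, the chemokine receptor that leads T cells to lymph node T zones, 416 ± 48.2 against 300.1 ± 39.5 CPM. Each of the 3 was higher in the gated cells of 20 of 20 mice. They were chosen with earlier results of these data known, so their levels do not check the label of the gate. Defining genes of other lineages were at or near 0: Ncr1 of NK cells, Tyr and Tyrp1 of melanoma had no UMI in any mouse, Cd4 averaged 0.961 CPM and Cd79a 1.31 CPM. Foxp3, the regulatory T cell factor, averaged 4.54 CPM, with a UMI in 2.11% of gated cells and 0.543% of 184 CD3-negative H2-Aa-high cells of the same libraries. Cst3, Ighm and Cd79b, from the dendritic cell and B cell lists, were present in every mouse at 81.3, 197 and 48.6 CPM on average. Ccr7 stands on the dendritic cell list too. With cells thinned to 3000 UMIs, H2-Oa had a UMI in 30.6% of gated and 37.1% of the H2-Aa-high cells. Ccr7 had one in 62.0% and 54.5%, and Capn3 in 14.4% and 0%. H2-Oa was thus not more frequent in the gate than in H2-Aa-high cells, and Ccr7 only slightly so.

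Gated cells were then set against all other cells of the same mice. Only genes at 50 CPM or more in either population and higher in all 20 mice were ranked. Among the 20 genes with the highest ratio to other cells, after Capn3 and with H2-Oa, were Mxd4, a MYC antagonist, at 237 ± 36.4 against 125 ± 18.2 CPM, and Ctla4, the inhibitory receptor that competes for B7 ligands, at 268 ± 42.4 against 154 ± 26.5 CPM. Ikzf2, which encodes Helios, averaged 140.5 ± 21.8 against 92.2 ± 10.7 CPM. The integrin gene Itgae, which encodes CD103, averaged 154 ± 25.2 against 99.1 ± 26.3 CPM. Rgs10, a brake on G protein signaling, averaged 422 against 261 CPM, Pik3ip1, an inhibitor of PI3 kinase, 91.0 against 55.7 CPM, and Ypel3, linked to growth arrest, 406 against 261 CPM. The others were Ephx1, Rflnb, Tmem108, Tdrp, Calcoco1, Pold4, Znrf1, Mgst2, Rgcc, Neurl3 and Tspan32.

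Genes of stem-like T cells outside the rule went both ways. Lef1, the partner of TCF-1, averaged 361 ± 38.3 against 253 ± 22.3 CPM, Slamf6, which encodes Ly108, 224 ± 23.6 against 162 ± 16.7 CPM, and Id3 193 ± 27.0 against 161 ± 18.05 CPM. Il7r, the IL-7 receptor alpha chain, was lower in 18 of 20 mice at 147 ± 33.4 against 178 ± 46.7 CPM, and Klf2 was lower in 19 of 20 at 418 ± 73.6 against 483 ± 65.6 CPM. Tox, which is switched on by lasting antigen receptor signaling, averaged 158 ± 19.7 against 117 ± 11.9 CPM. Transcripts of PD-1 itself were low, with Pdcd1 at 18.5 ± 6.09 against 27.5 ± 10.7 CPM, and the gated cells were below the others in 17 of 20 mice although all cells had been sorted for the protein. Among genes at 50 CPM or more in either population and lower in every mouse, the 10 with the lowest ratio were 8 proliferation genes, led by Pclaf at 18.05 against 215 CPM and including Birc5, Rrm2, Ccna2, Tpx2, Cenpf, Ube2c and Ccnb2, with the effector genes Ccl5 (116 ± 67.9 against 662 ± 235 CPM) and Lgals3 (6.70 against 63.8 CPM). The Mki67 clause of the gate bears on the proliferation genes, and the clauses on granzymes and Xcl1 on effector genes. Other cytotoxic genes stayed abundant, with Nkg7 at 668 ± 60.2 against 745 ± 121 CPM and Cst7, higher in 18 of 20 mice, at 213 ± 26.3 against 185 ± 22.3 CPM. Among inhibitory receptors Tigit averaged 18.4 ± 8.24 against 28.9 ± 10.1 CPM, lower in 19 of 20 mice, and Lag3 74.5 ± 27.5 against 78.7 ± 26.1 CPM.

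A gene can be seen in more cells merely because those cells were read more deeply, so cells were also thinned to 3000 UMIs. Ctla4 had a UMI in 67.6% of gated cells and 40.2% of Izumo1r-zero twins, and after thinning in 47.2% and 27.4%. Ly6a-positive twins were close to the gate, with Ctla4 in 69.9% and, thinned, in 43.5%. In the CD3-negative H2-Aa-high cells, which should lack it and which had a median of 6207 UMIs, the share was 3.26%, and 1.52% thinned. Tox had a UMI in 36.7% of thinned gated cells and 27.8% of the Izumo1r-zero twins, and Ikzf2 in 31.2% and 21.8%. In Ly6a-positive twins the thinned shares were 30.8% for Tox and 21.8% for Ikzf2. Tox and Ikzf2 were therefore more frequent in gated cells than in either set of twins at equal depth. They were also above the 0% and 2.27% of the H2-Aa-high cells.

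Sorting the gate by its number of Izumo1r UMIs showed which genes followed Izumo1r. Mean levels over mice are given for Izumo1r-zero twins and then for gated cells with 1, 2 and at least 3 Izumo1r UMIs. H2-Oa averaged 84.5, 120.3, 141 and 159 CPM, Capn3 25.6, 48.5, 55.6 and 83.2 CPM and Ctla4 155, 228, 269.7 and 316 CPM, so all 3 were higher with each step. The ligand gene Wnt10a averaged 19.5, 33.3, 46.5 and 89.0 CPM and Cd74, the invariant chain, 40.7, 72.9, 85.7 and 139 CPM. In the other direction Ccl5, a chemokine of effector cells, averaged 471, 178, 76.5 and 69.9 CPM, Klf2, the factor that keeps egress receptors on, 661, 491, 451 and 331 CPM, and Il7r 232, 154, 146 and 130.3 CPM. Lef1 was nearly flat at 365, 365, 368 and 363 CPM. Isg15, a ubiquitin-like protein induced by interferon, averaged 107, 116, 132 and 111 CPM, with an SD over mice of 107 CPM or more in each class. Median depth was 5755, 6872, 7236.5 and 7650.0 UMIs in the 4 classes.

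**Figure D1:**
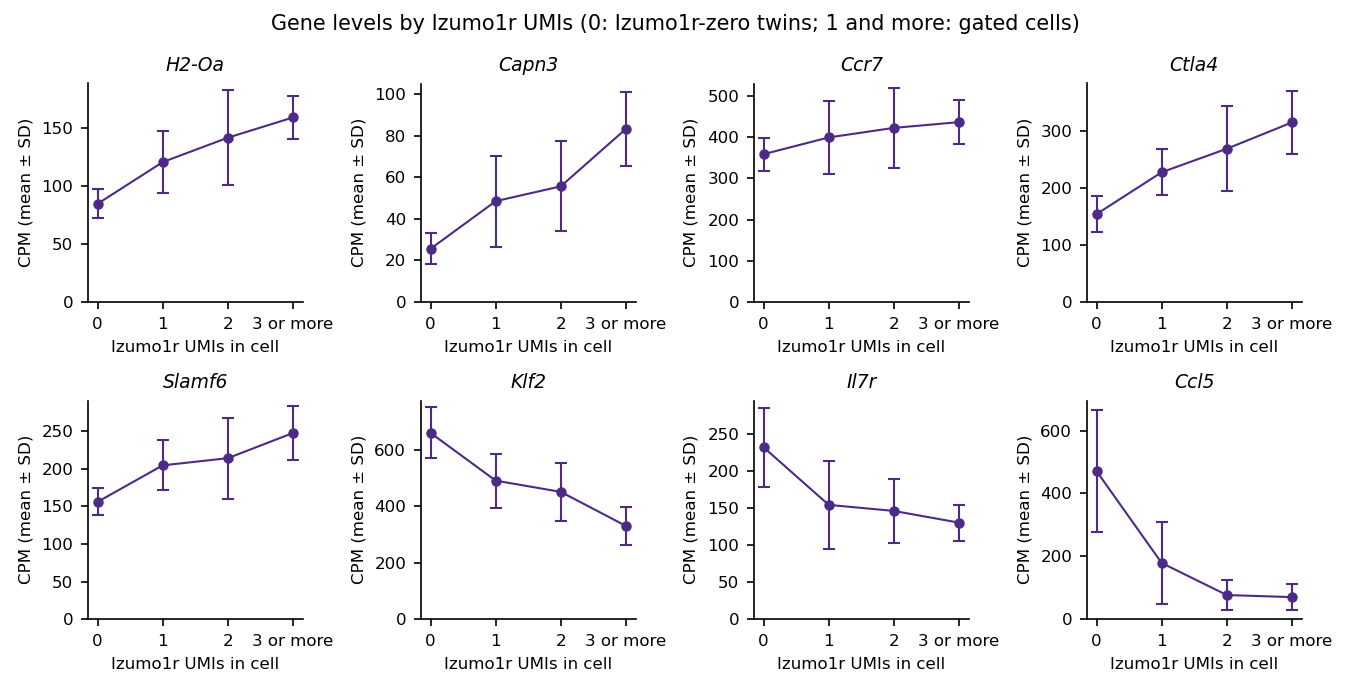
Levels of 8 genes in CPM (vertical axes) by the number of Izumo1r UMIs in a cell (horizontal axes), where 0 stands for Izumo1r-zero twins and 1, 2 and 3 or more for gated cells; points are means over mice and bars the SD. H2-Oa, Capn3, Ccr7, Ctla4 and Slamf6 are higher from left to right, while Klf2, Il7r and Ccl5 are lower.

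Against the twins, genes were named only if gated cells lay on the same side in every mouse compared, 20 for the Izumo1r-zero twins. Set against these, gated cells were higher for Wnt10a (55.6 ± 23.6 against 19.5 ± 7.95 CPM), Cd74 (99.1 against 40.7 CPM), Capn3, Mxd4, Ctla4, H2-Oa, Gstp3, Ephx1, Ptms and Slamf6. They were lower for Ccl5, for the calcium-binding effector genes S100a4 (37.9 against 128 CPM) and S100a6, and for Klf2, Il7r, Klf3, Mrto4, Arl4c and Mybbp1a. S1pr1, the receptor that lets T cells leave the node, was lower too (83.5 against 124 CPM). The Ly6a-positive twins were compared in 19 mice because RT mouse 4 had fewer than the 10 cells required. At the size limit used for naming, 4 genes were higher in gated cells of every one of those mice, Sesn3 (163 against 136 CPM), Prkch, Eif4b and Zfp36l1, and 2 were lower, Ly6c2 (376 against 670.1 CPM), a Ly6 family neighbor of Ly6a, and Thy1 (689 against 786 CPM). Ikzf2 was further apart, at 140.0 against 79.2 CPM, and was higher in 18 of the 19 mice. Ctla4 and Capn3 were nearly level with these twins, at 269 against 270 CPM and 63.7 against 62.1 CPM. Each was higher in the gated cells of 10 mice and lower in 9, so neither set the gate apart from Ly6a-positive twins.

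T cell receptor beta V segments were diverse in the gate. The most used segment took 8.61% to 16.4% of the Trbv UMIs of a mouse, the highest of these in the 26 cells of RT mouse 4, and 8.25% to 16.7% in the other cells.

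The gate held a smaller share of the cells after RT + αPD-L1. Per mouse, gated cells made up 16.1, 16.5, 19.1, 15.6 and 21.0% of Control cells, 15.3, 15.4, 15.7, 17.4 and 16.2% after RT, 15.3, 11.2, 13.0, 13.5 and 14.1% after αPD-L1 alone and 12.9, 10.5, 5.04, 9.41 and 10.7% after RT + αPD-L1. All 5 RT + αPD-L1 mice were below all Control and RT mice, and 1 of them, mouse 1, was above the lowest αPD-L1 mouse. The separation from RT depended on how cells were given to mice. With HTODemux, RT mouse 1 was at 9.82%, from 112 cells. That was below RT + αPD-L1 mice 1, 2 and 5, at 11.99, 10.2 and 10.4%. All RT + αPD-L1 mice stayed below the lowest Control mouse, at 14.2%. Under the main assignment of mice, the means were 17.7% ± 2.31 (SD, n = 5), 16% ± 0.872, 13.4% ± 1.51 and 9.72% ± 2.91. With every cell thinned to 3000 UMIs, which left out 1066, 1029, 1317 and 1174 shallower cells in the 4 groups, they were 10.2%, 8.998%, 7.69% and 5.63%.

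The genes of the rule moved with treatment, so the share is a description and was not tested. Among cells that met every other clause, the Ly6a clause removed 45.4% after RT + αPD-L1, against 16.5% in Control, 17.6% after RT and 20.8% after αPD-L1. The Izumo1r clause removed 63.0%, 50.9%, 57.4% and 60.3% in the same order. Ly6a-positive cells made up 14.2% ± 4.23 (SD, n = 5) of gated cells and Ly6a-positive twins together in Control and 35.1% ± 14.5 in RT + αPD-L1, with 56.7% in mouse 3, whose gate share was the lowest.

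**Figure D2:**
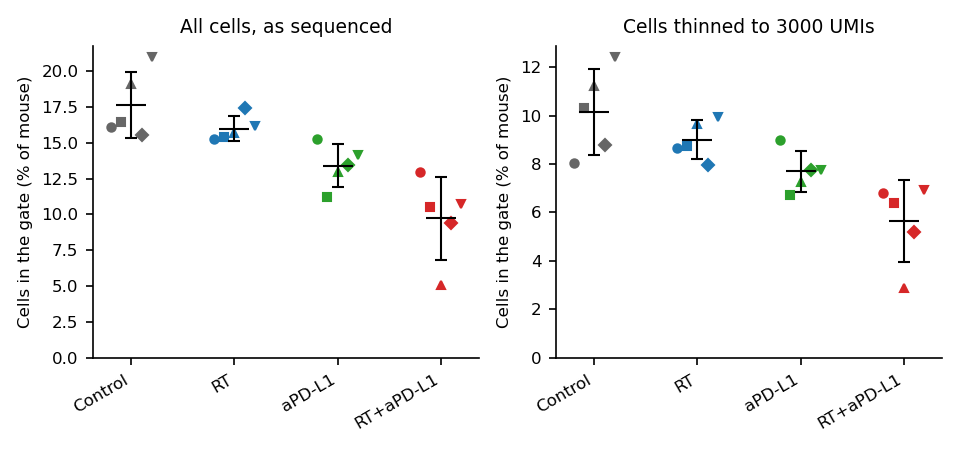
Share of each mouse's cells that fell in the gate, in percent, by treatment; markers are the 5 mice, dashes the means and bars the SD, with all cells as sequenced on the left and cells thinned to 3000 UMIs on the right. The RT + αPD-L1 mice sit between 5.04% and 12.9% on the left, below the Control mice at 15.6% to 21.0%.

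Gated cells were compared between treatments by summing the gated UMIs of each mouse and testing 8943 genes, the 14 genes of the rule left out. The Ly6a clause removed 45.4% of otherwise passing cells after RT + αPD-L1 and 16.5% in Control, so the cells compared were not selected alike. In the same order the Izumo1r clause removed 63.0% and 50.9%, the Mki67 clause 16.8% and 22.8% and the Xcl1 clause 12% and 17.3%. The part of these clauses in the differences below, falls included, was not tested. In RT + αPD-L1 the gated cells showed a broad interferon response. Against Control, 157 genes were higher and 32 lower (189 of 8943 tested, 2.11%, of which higher 1.76% and lower 0.358%, edgeR quasi-likelihood test, Benjamini-Hochberg adjusted p below 0.05). Of a list of 56 interferon-stimulated genes, 46 were tested, and 43 of the 46 rose and none fell, against 1.76% of all genes called higher. The median log2 fold change of the 46 was 0.98, and over all tested genes it was -0.003067. In RT alone and αPD-L1 alone the same 46 genes had medians of -0.07 and -0.15.

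Rsad2, which encodes the antiviral enzyme viperin (chr12:26442746-26456452, minus strand, GRCm38), showed the largest fold change among the named genes. Its level was 4.45, 3.24, 0.633, 3.54 and 10.4 CPM in Control mice 1 to 5 and 0, 46.3, 71.2, 32.6 and 22.5 CPM in RT + αPD-L1. Mice 2 to 5 of RT + αPD-L1 were above every Control mouse, while mouse 1 had no Rsad2 UMI. The log2 fold change was 3.08 ± 0.41 (adjusted p = 2.67e-05). Isg15 (chr4:156199424-156200818, minus strand) was at 68.6, 72.9, 69.0, 28.3 and 134 CPM in Control and 57.3, 431, 583, 172 and 193 CPM in RT + αPD-L1, a log2 fold change of 2.001 ± 0.32 (adjusted p = 0.000160). Here too 4 mice were above all Control mice and mouse 1 was inside their range.

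The same 4 mice carried the other leading genes. Ifit3, of the IFIT family that binds viral RNA, was at 36.7, 32.1, 27.9, 5.90 and 60.8 CPM in Control and 19.1, 223, 335, 91.2 and 119 CPM in RT + αPD-L1, with a log2 fold change of 2.32 ± 0.34 (adjusted p = 6.15e-05). Its near-identical neighbor Ifit3b rose by 2.53 ± 0.42 and Ifit1 by 2.20 ± 0.33 on the log2 scale, though reads of Ifit3 and Ifit3b may not be fully separable. Usp18, the protease that removes ISG15 and dampens the interferon receptor, was at 17.4, 17.3, 13.3, 4.72 and 30.2 CPM in Control and 9.55, 106, 153, 58.5 and 41.3 CPM in RT + αPD-L1. The Usp18 fold change was 2.24 ± 0.32 (adjusted p = 5.49e-05). The oligoadenylate synthetase genes Oasl2 (2.33 ± 0.42), Oasl1 (1.89 ± 0.37) and Oas1a (1.60 ± 0.26), and the nucleotide kinase gene Cmpk2 (1.89 ± 0.30), which lies beside Rsad2 on chromosome 12, rose as well. In each of these 8 genes mouse 1 of RT + αPD-L1 was not above the Control mice, and for Oasl1 neither was mouse 5.

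Stat2 was higher in all 5 mice. Stat2, the signal transducer of type I interferon, was at 20.02, 21.0, 25.3, 16.5 and 27.2 CPM in Control and 35.8, 51.4, 61.5, 35.5 and 47.6 CPM in RT + αPD-L1. Every RT + αPD-L1 mouse, mouse 1 included, was above every Control mouse, and the log2 fold change was 1.13 ± 0.15 (adjusted p = 2.67e-05). Slfn1, a Schlafen gene tied to T cell quiescence, was at 129, 141, 156, 79.1 and 132 and 153, 236, 316, 232 and 237 CPM, with mouse 1 just under the highest Control mouse, and a log2 fold change of 0.91 ± 0.12 (adjusted p = 2.67e-05). Phf11b rose by 1.13 ± 0.15, with mice 2 to 5 above and mouse 1 below all Control mice. Over all genes tested, the groups did not overlap for 202 (2.26%).

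**Figure D3:**
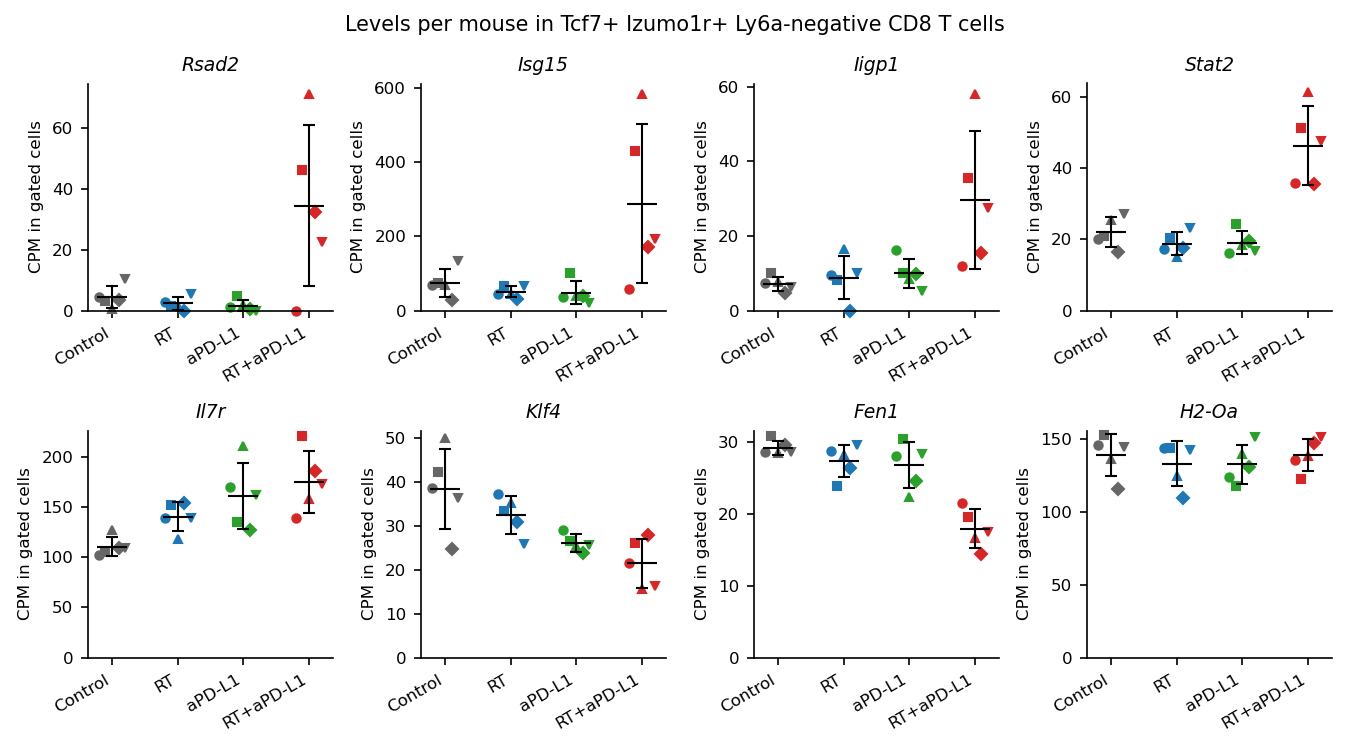
Levels of 8 genes in the gated cells of each mouse, in CPM, by treatment; markers are the 5 mice in fixed order of symbols, dashes the means and bars the SD. For Rsad2 and Isg15, 4 of the 5 RT + αPD-L1 mice stand above the rest and mouse 1 does not, while Iigp1, Stat2 and Il7r are above every Control mouse in all 5, Fen1 is below every Control mouse in all 5, and H2-Oa is level across groups.

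Some genes induced by type II interferon rose as well. Of 26 tested interferon-gamma GTPases and regulators, 15 rose, against 1.76% of all genes, none fell and 11 did not pass, with a median log2 fold change of 0.69. Iigp1, an immunity-related GTPase, was at 7.42, 9.95, 7.60, 4.72 and 6.38 CPM in Control and 11.9, 35.5, 58.0, 15.4 and 27.5 CPM in RT + αPD-L1 (2.14 ± 0.29, adjusted p = 2.67e-05). Tgtp1, another of these GTPases (chr11:48985327-48994172, minus strand), was at 24.5, 34.9, 18.4, 11.8 and 40.0 and 54.9, 129, 148, 57.6 and 45.1 CPM (1.75 ± 0.23, adjusted p = 2.67e-05). Iigp1 and Tgtp1 were higher in every RT + αPD-L1 mouse than in every Control mouse. Tgtp2 and Ifi47 rose by 1.18 ± 0.17 and 0.88 ± 0.14, with mouse 1 inside the Control range for each. Tgtp1 and Tgtp2 are near-identical copies whose UMIs may be shared. Socs1, which shuts off JAK signaling, rose by 0.68 ± 0.17 (adjusted p = 0.0222).

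MHC class I genes present peptides to CD8+ T cells. Of 10 tested, 5 rose, against 1.76% of all genes, 5 did not pass, none fell and the median was 0.25. H2-K1, a classical class I heavy chain, was at 2533, 2735, 2865, 2476 and 2792 CPM in Control and 2986, 3015, 3239, 3088 and 3381 CPM in RT + αPD-L1. The groups did not overlap, and the log2 fold change was 0.23 ± 0.04 (adjusted p = 0.000709). The nonclassical genes H2-T24, H2-T23 and H2-T22 rose by 1.12 ± 0.20, 0.38 ± 0.07 and 0.36 ± 0.08.

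The promoters of the genes that rose were searched for the core of the ISRE, spelled GAAA, then any 2 bases, then GAAA, or on the other strand TTTC, any 2 bases, TTTC, in the window from 250 bases before to 50 after the start of the gene (RefSeq sequences, GRCm38.p6). The motif was in 1131 of 32851 promoters (3.44%) and in at least 1 promoter of 282 of 7117 tested genes with a sequence (3.96%). It was in 47 of the 129 genes with a sequence that rose in RT + αPD-L1 against Control (36.4%) and in 1 of 19 that fell (5.26%). By list, it was in 21 of 37 interferon-stimulated genes (56.8%) and 11 of 19 interferon-gamma GTPases and regulators (57.9%), so it did not separate these 2 lists. It was in 3 of 9 MHC class I genes (33.3%) and 2 of 24 immediate early genes (8.33%). A match is a description of letters and not a site shown to be bound. Windows of 26 bases around the first match are printed for 5 genes whose fold changes are given above, since they show the letters that these promoters share. The motif is in capitals and the strand of the gene is read 5′ to 3′.
Rsad2: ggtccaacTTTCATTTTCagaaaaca
Ifit3: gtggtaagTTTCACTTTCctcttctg
Ifit1: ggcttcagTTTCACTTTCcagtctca
Tgtp1: caggaatcGAAACTGAAAcctacctg
Stat2: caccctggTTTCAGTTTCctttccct
Isg15 holds 3 overlapping matches, and its middle window reads as follows.
Isg15: aggaaaagGAAACCGAAAcagaaaat
The windows lie at chr12:26456555-26456580 (minus strand) for Rsad2, chr19:34583365-34583390 (plus strand) for Ifit3, chr19:34640777-34640802 (plus strand) for Ifit1, chr11:48992306-48992331 (minus strand) for Tgtp1, chr10:128270268-128270293 (plus strand) for Stat2 and chr4:156200873-156200898 (minus strand) for Isg15. The Ifit3 window recurs letter for letter in the promoter of Ifit3b at chr19:34607761-34607786 (plus strand). The motif starts 120 bases before the start site in Rsad2 and 222 bases before it in Stat2. Start sites are those of RefSeq and can differ from the gene ends of GENCODE: the RefSeq start of Tgtp1, and with it the window, lies inside the GENCODE gene.

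The response was spread over many cells of a mouse, unevenly between mice. With each cell thinned to 3000 UMIs, the UMIs of 54 interferon-stimulated genes were summed. The median gated cell held 15, 18, 19, 13 and 18 such UMIs in Control mice 1 to 5 and 17, 21, 39, 22 and 25 in RT + αPD-L1. The 90th percentiles were 28, 31, 36.5, 24 and 35.1 in Control and 28, 74, 81.4, 47 and 51 in RT + αPD-L1. Mouse 3 was shifted as a whole, with even its 10th percentile at 17 against 7 to 9 in Control, whereas mouse 2 had a median near Control and a long upper end. The share of gated cells above the 90th percentile of all Control gated cells (32 UMIs) was 4.92, 31.2, 62.3, 25.5 and 35.1% in the RT + αPD-L1 mice, 0.9901% to 13.7% in Control, 0% to 9.39% in RT and 3.72% to 15.8% in αPD-L1. Mouse 1 of RT + αPD-L1 was inside the Control range of medians, 90th percentiles and shares. All RT + αPD-L1 mice came from 1 library and shared its free RNA, which was not corrected for and whose part in these counts was not tested.

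**Figure D4:**
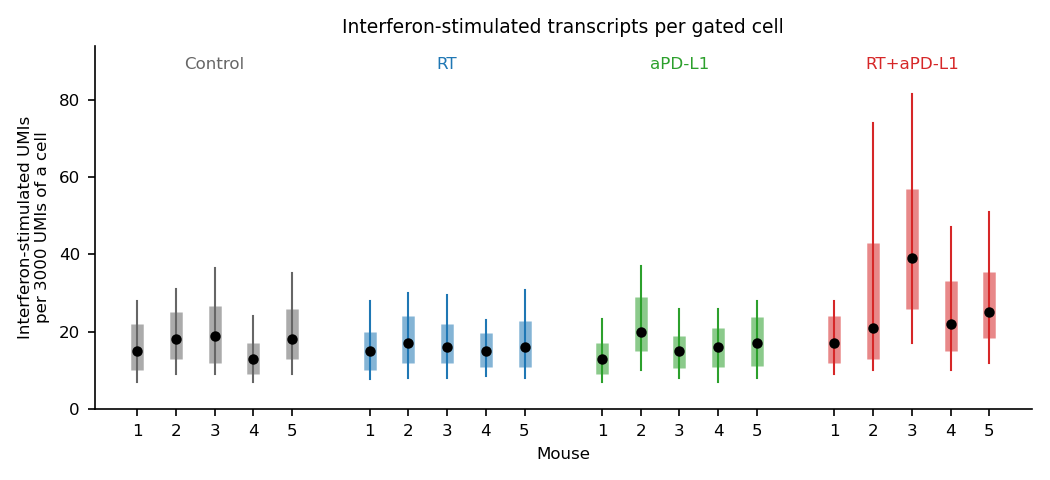
UMIs of interferon-stimulated genes per 3000 UMIs of a gated cell (vertical axis) for each mouse (horizontal axis, mice 1 to 5 of each treatment); dots are medians, thick bars the 25th to 75th and thin lines the 10th to 90th percentiles. Control, RT and αPD-L1 medians lie between 13 and 20, and RT + αPD-L1 medians between 17 and 39.

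Summed over the list, interferon-stimulated genes took 5940.4 ± 959.9 CPM in Control (SD, n = 5), 5612 ± 468 after RT, 5765 ± 1029.5 after αPD-L1 alone and 9762 ± 2908 after RT + αPD-L1. The count of genes passing the test rested in part on RT + αPD-L1 mouse 3. Without that mouse 96 of 8973 genes passed (82 higher, 14 lower), and 30 of 47 tested interferon-stimulated genes rose with a median of 0.73. Without mouse 1, 218 of 9096 genes passed (177 higher, 41 lower), and 46 of 48 interferon-stimulated genes rose with a median of 1.07.

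Genes that fell in RT + αPD-L1 were fewer and fell by less. Fen1, the flap endonuclease of DNA replication and repair, was at 28.6, 30.8, 28.5, 29.5 and 28.6 CPM in Control and 21.5, 19.5, 16.7, 14.4 and 17.5 CPM in RT + αPD-L1. The groups did not overlap, with a log2 fold change of -0.73 ± 0.14 (adjusted p = 0.00135). Fabp5, a fatty acid carrier, was at 30.4, 27.1, 26.0, 36.6 and 27.6 and 14.3, 13.0, 16.1, 21.1 and 21.3 CPM (-0.74 ± 0.16, adjusted p = 0.00426), again without overlap. Klf4, a Krüppel-like factor that restrains T cell proliferation, was at 38.6, 42.3, 50, 24.8 and 36.3 and 21.5, 26.1, 15.5, 27.8 and 16.3 CPM, with RT + αPD-L1 mice 2 and 4 above the lowest Control mouse (-0.89 ± 0.16, adjusted p = 0.000888). The costimulatory receptor gene Cd27 was at 312, 301, 311, 289 and 305 and 229, 235, 256, 275 and 250.4 CPM, every RT + αPD-L1 mouse below every Control mouse (-0.27 ± 0.06, adjusted p = 0.00907). Tmem154 fell by 0.95, the mitochondrial tRNA synthetase gene Lars2 by 0.68, and the histone genes Hist1h1e, Hist1h4d and Hist1h1c by 0.69, 0.58 and 0.47 on the log2 scale. Unlike most interferon-inducible genes, Ifi27 fell, from 226, 244, 218, 210.1 and 193 to 227, 172, 143, 156 and 140.2 CPM (-0.43 ± 0.09, adjusted p = 0.00215), and mouse 1 kept a Control level.

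Immediate early genes are raised both by antigen receptor signaling and by cell handling. Of 29 tested, 3 fell in RT + αPD-L1 against 0.358% of all genes, none rose and 26 did not pass, and the median log2 fold change was -0.24. Junb, an AP-1 subunit, was at 1725, 1599, 1809, 1388 and 1655 CPM in Control and 1466, 1369, 1383, 1374 and 1314 CPM in RT + αPD-L1 (-0.24 ± 0.06, adjusted p = 0.00998). The transcription factor gene Klf6 and the phosphatase gene Dusp1 fell by 0.45 and 0.38. Nfkbia, the NF-κB inhibitor, had a log2 fold change of -0.25 ± 0.07 (adjusted p = 0.0580), short of the threshold. In αPD-L1 the same 29 genes had a median of -0.22 with none called and 14 at an unadjusted p below 0.05, and in RT the median was -0.06. The summed level was 9217 ± 540.0 CPM in Control, 8870.4 ± 333 after RT, 8461 ± 302 after αPD-L1 alone and 8363 ± 313 after RT + αPD-L1 (SD, n = 5). The groups overlapped, with RT + αPD-L1 mouse 1 at 8877.8 CPM and Control mouse 4 at 8308.5 CPM. Sample handling was not recorded in the labels, and its part was not tested.

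Of 24 tested stem and memory genes, Il7r rose and Cd27 fell in RT + αPD-L1 against Control, and the median was 0.01. Over all genes, 1.76% were called higher and 0.358% lower. Il7r (chr15:9505788-9530176, minus strand) was at 102, 105, 127, 109 and 109 CPM in Control, 139, 152, 118, 154 and 139 after RT, 169.6, 135, 211, 127 and 162 after αPD-L1 alone and 138, 220.1, 157, 186 and 173 after RT + αPD-L1. Every RT + αPD-L1 mouse was above every Control mouse, and so was every αPD-L1 mouse (127.30 CPM in the lowest of these and 127.23 CPM in the highest Control mouse). The log2 fold change was 0.72 ± 0.12 (adjusted p = 0.000304) in RT + αPD-L1. Satb1, a chromatin organizer of T cells, had a log2 fold change of 0.31 ± 0.09 (adjusted p = 0.0642), short of the threshold.

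The markers that came with the gate were measured in every mouse. H2-Oa ranged over 116 to 153 CPM in Control, 110.0 to 144 after RT, 118 to 152 after αPD-L1 alone and 123 to 152 after RT + αPD-L1, and its log2 fold change for RT + αPD-L1 against Control was -0.03 ± 0.08 (adjusted p = 0.946). Capn3 ranged over 53.4 to 74.7, 53.9 to 81.2, 46.0 to 81.0 and 44.2 to 90.7 CPM (-0.21 ± 0.15, adjusted p = 0.629), and Ccr7 over 367 to 498, 370.2 to 506, 319.8 to 414 and 356 to 451 CPM (-0.12 ± 0.08, adjusted p = 0.605). The 4 treatments overlapped for each of the 3.

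In RT + αPD-L1 against Control, 1.76% of all genes tested were called higher and 0.358% lower. The few calls in the lists that follow are to be read against these shares. Of 20 tested inhibitory and exhaustion genes, Ptpn22, a phosphatase that restrains receptor signaling, rose by 0.27 ± 0.07 (adjusted p = 0.0376), and the median was -0.11. Pdcd1 had 0.54 ± 0.18 (adjusted p = 0.157) and the G protein regulator Rgs16 -0.75 ± 0.25 (adjusted p = 0.135), both short of the threshold. Of 21 anergy and chronic stimulation genes 1 passed, Phlda1, which fell by 0.53 (adjusted p = 0.0355), with a median of -0.11. Of 23 effector and cytotoxic genes, Plac8 (1.24 ± 0.24, adjusted p = 0.00159) and Ly6c2 (1.03 ± 0.19, adjusted p = 0.00113) rose, and the median was 0.05. Ly6c2, a Ly6 family member that interferon also raises, was at 229, 332, 254, 314 and 289 CPM in Control and 138, 624.8, 853, 653 and 433 CPM in RT + αPD-L1, mouse 1 below all Control mice and the other 4 above them.

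Of 24 homing and adhesion genes, S1pr4 rose (0.29 ± 0.08, adjusted p = 0.0376) and the integrin gene Itga4 did not pass (0.38 ± 0.11, adjusted p = 0.0854). Of 24 common gamma chain and cytokine receptor genes, Il7r and Socs1 rose, against 1.76% of all genes called higher. None of 24 S phase and G2/M genes passed edgeR's test, although the median was -0.23 and 8 had an unadjusted p below 0.05. None of 14 p53 targets, 17 T cell receptor complex genes, 16 glycolysis and growth genes, 7 naive cell markers or 4 MHC class II pathway genes passed, with 2, 1, 5, 4 and 2 at an unadjusted p below 0.05. Mdm2, a p53 target, had a log2 fold change of 0.32 ± 0.12 (adjusted p = 0.216). Of 12 survival genes, Bcl2a1b fell (-0.36 ± 0.10, adjusted p = 0.0438), against 0.358% of all genes called lower. Summed NK cell markers were at 5.51 ± 1.52 CPM in Control and 12.3 ± 9.43 CPM in RT + αPD-L1, and summed naive cell markers at 1881 ± 135 and 1973 ± 105 CPM (SD, n = 5). Their part in the differences was not tested.

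**Figure D5:**
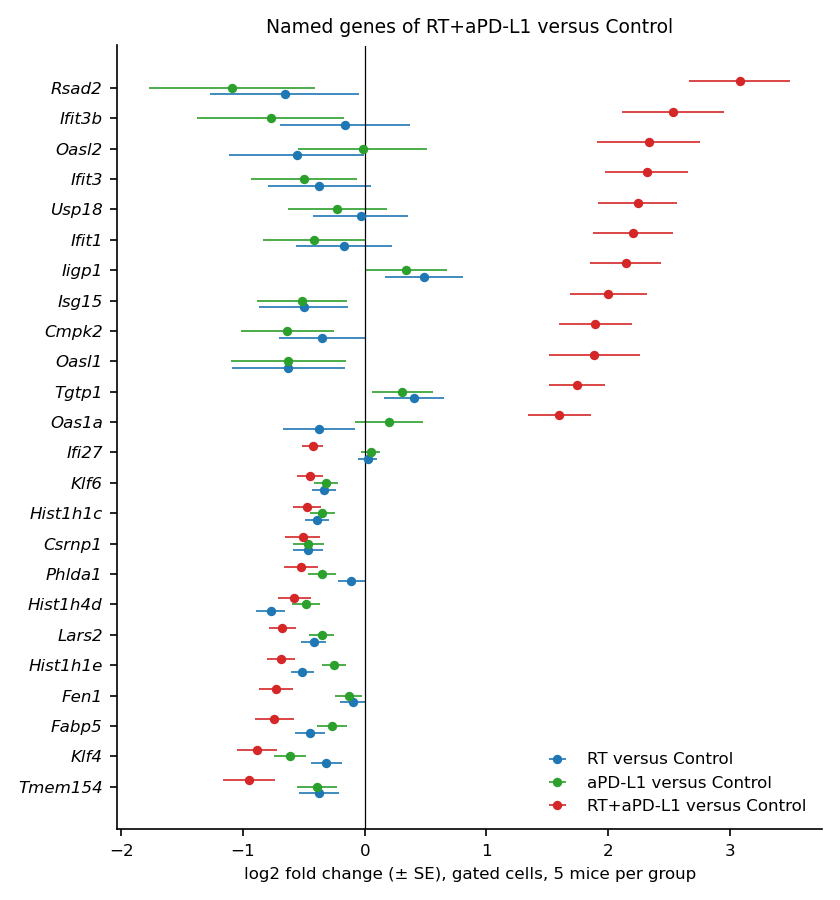
Log2 fold changes against Control (horizontal axis, points, with bars for 1 SE) of 24 named genes (vertical axis), those that moved furthest after RT + αPD-L1, in gated cells of RT, αPD-L1 and RT + αPD-L1 mice (5 per group). The RT + αPD-L1 points of the 12 interferon-induced genes lie between 1.60 and 3.08, and the RT and αPD-L1 points of those genes lie between -1.09 and 0.48.

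RT alone left few differences by day 7. Against Control, 7 of 8943 genes passed (0.0783%), 2 higher (0.0224%) and 5 lower (0.0559%). Dynll1, a dynein light chain, was at 244, 232, 286, 237 and 271 CPM in Control and 312, 349, 349, 396 and 291 CPM in RT, without overlap, with a log2 fold change of 0.39 ± 0.08 (adjusted p = 0.0252). Cirbp, the cold-inducible RNA-binding protein gene, was at 149.8, 143, 135, 159 and 138 and 123, 80.1, 85.6, 83.6 and 116 CPM, also without overlap (-0.55 ± 0.11, adjusted p = 0.0439). The histone genes Hist1h4d, Hist1h1e and Hist1h2ab fell by 0.77, 0.51 and 0.89 on the log2 scale. Hist1h2ab overlapped, since RT mouse 4, with 26 gated cells, was above every Control mouse. The other 2 were a T cell receptor V segment and a predicted gene. None of the 46 interferon-stimulated genes passed and 2 had an unadjusted p below 0.05.

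αPD-L1 alone was set against Control in the same fit. Of 8943 genes 8 passed, 3 higher and 5 lower (0.0895% in all, 0.0335% higher and 0.0559% lower). Il7r rose by 0.55 ± 0.12 (adjusted p = 0.0478), Dynll1 by 0.39 ± 0.08 (adjusted p = 0.0154) and Rpl10-ps3, a ribosomal protein pseudogene whose UMIs may belong to a copy, by 0.60 ± 0.09 (adjusted p = 0.000106). Cirbp was at 89.7, 111, 95.8, 72.1 and 68.2 CPM in αPD-L1 (-0.67 ± 0.11, adjusted p = 0.00322). Of the others that fell, 3 were predicted genes or transcripts overlapping ribosomal RNA. None of the interferon-stimulated genes passed and 2 had an unadjusted p below 0.05. RT and αPD-L1 share the Control mice, so Dynll1 and Cirbp in both comparisons are not independent.

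Adding αPD-L1 to RT was compared directly. Between RT + αPD-L1 and RT, 142 genes passed (1.59%), 129 higher (1.44%) and 13 lower, and 42 of 46 interferon-stimulated genes rose, with a median log2 fold change of 1.09. Rsad2, at 2.87, 1.65, 1.62, 0 and 5.59 CPM in RT, was higher by 3.74 ± 0.46 (adjusted p = 8.68e-06), Isg15, at 45.9, 66.2, 45.9, 30.8 and 66.8 CPM in RT, by 2.50 ± 0.35 (adjusted p = 3.49e-05), and Oasl2 by 2.89 ± 0.46. Stat2, at 17.2, 20.5, 15.2, 17.6 and 23.3 CPM in RT, was higher by 1.34 ± 0.16 (adjusted p = 5.59e-06) without overlap. Bst2, which encodes tetherin, was higher by 1.71 ± 0.20 (adjusted p = 5.21e-06), also without overlap. Gbp10 and Plac8 were higher by 1.88 ± 0.32 and 1.72 ± 0.26, Ccl5 by 1.20 ± 0.28 (adjusted p = 0.0156), S1pr4 by 0.51 ± 0.08 (adjusted p = 0.000144) and Socs1 by 0.98 ± 0.18 (adjusted p = 0.000930). Lower genes were Fen1 (-0.64 ± 0.14), Lta, the lymphotoxin alpha gene (-0.70 ± 0.19, adjusted p = 0.0468), Ifi27 (-0.45 ± 0.09), Rasgrp1, an activator of RAS below the antigen receptor (-0.33 ± 0.08, adjusted p = 0.0240), Dapl1, abundant in naive and memory T cells (-0.32 ± 0.09, adjusted p = 0.0425), and Tmsb4x, the thymosin beta 4 gene (-0.21 ± 0.04, adjusted p = 0.00299), with Lclat1, Iqsec1, Txndc12, Ppih and Tulp4. Without RT + αPD-L1 mouse 3, 78 genes passed.

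What RT added to αPD-L1 was read from the remaining pair. Between RT + αPD-L1 and αPD-L1, 128 genes passed (1.43%), 122 higher (1.36%) and 6 lower (0.0671%), and 42 of 46 interferon-stimulated genes rose, with a median of 1.19. Rsad2, at 1.08, 4.74, 1.72, 0.424 and 0 CPM in αPD-L1, was higher by 4.17 ± 0.50 (adjusted p = 1.19e-05), and Ifit3b and Ifit3 by 3.31 ± 0.49 and 2.82 ± 0.38. Isg15 was at 37.8, 102, 40.4, 40.3 and 20.6 CPM in αPD-L1, where mouse 2 stood above the other 4, and was higher in RT + αPD-L1 by 2.52 ± 0.34 (adjusted p = 2.37e-05). Cxcl10, a chemokine that draws CXCR3-bearing T cells, was higher by 1.97 ± 0.42 (adjusted p = 0.00558), yet at 4.77, 57.9, 66.1, 7.68 and 2.50 CPM in RT + αPD-L1 it rested on mice 2 and 3, and mice 1 and 5 were below every αPD-L1 mouse. Slfn5 was higher by 1.78 ± 0.23. Pdcd1 and Itga4 were higher by 0.78 ± 0.20 (adjusted p = 0.0298) and 0.47 ± 0.12 (adjusted p = 0.0256). The 6 lower genes were Fen1 (-0.60 ± 0.15), Rpl10-ps3 (-0.55 ± 0.10), Ifi27 (-0.48 ± 0.09), Lamtor2 (-0.29 ± 0.08), Srp14 (-0.26 ± 0.07) and Tmsb4x (-0.18 ± 0.04). Without RT + αPD-L1 mouse 3, 50 genes passed.

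Whether the response to RT + αPD-L1 was particular to the gated cells was asked against both sets of twins in models with the mouse as a block. Of 9440 genes, none was called as differing in its change between gated cells and Izumo1r-zero twins (0% called, edgeR, 368 at an unadjusted p below 0.05, and DESeq2 also called 0 with 195 at that level). Of 8512 genes, none was called by either tool against the Ly6a-positive twins in 19 mice (0% called, 314 by edgeR and 207 by DESeq2 at that level). Ly6a is itself induced by interferon and its clause removed 45.4% of cells after RT + αPD-L1 and 16.5% in Control, so the split between these cells moved with the response, and this second test cannot tell whether the response was particular to the gate. Changes present in 1 population and absent in the other could have been missed when small. In counts simulated for the first of these tests, 85 of 100 genes changed by 1 log2 unit and 100 of 100 changed by 2 were found. There, 9 unchanged genes were called. Every simulated gene had the same spread. The simulation therefore does not give the power for genes that vary strongly between mice, such as Rsad2.

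Over 44 interferon-stimulated genes tested in each, the median log2 fold change for RT + αPD-L1 against Control was 0.96 in gated cells, 1.11 in Izumo1r-zero twins and 1.02 in Ly6a-positive twins. Over 25 interferon-gamma genes it was 0.68, 0.90 and 0.63, and over 10 MHC class I genes 0.25, 0.27 and 0.34. The change of Isg15 in gated cells minus that in Izumo1r-zero twins was -0.13 ± 0.12 (SE, interval -0.38 to 0.12, unadjusted p = 0.301, adjusted p = 0.99998), where intervals span 2 SE to each side. Minus that in Ly6a-positive twins it was 0.57 ± 0.18 (SE, interval 0.21 to 0.93, unadjusted p = 0.00294, adjusted p = 0.99995). For Stat2 the difference from Izumo1r-zero twins was 0.22 ± 0.19 (SE, interval -0.16 to 0.59, unadjusted p = 0.250, adjusted p = 0.99998).

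Over 31 genes called lower in RT + αPD-L1, a choice made on the gated cells themselves, the median was -0.43 in gated cells, -0.21 in Izumo1r-zero twins and -0.22 in Ly6a-positive twins. Klf6 had a difference from Izumo1r-zero twins of -0.39 ± 0.10 (SE, interval -0.58 to -0.19, unadjusted p = 0.000269, adjusted p = 0.99998), Cd27 of -0.26 ± 0.08 (SE, interval -0.42 to -0.11, unadjusted p = 0.00106, adjusted p = 0.99998) and Fen1 of -0.49 ± 0.21 (SE, interval -0.92 to -0.07, unadjusted p = 0.0250, adjusted p = 0.99998). None of these passed after adjustment. For Il7r the difference was -0.02 ± 0.11 (SE, interval -0.25 to 0.20, unadjusted p = 0.845, adjusted p = 0.99998), and its rise was 0.74 in Izumo1r-zero twins and 0.76 in Ly6a-positive twins. In Control, the summed interferon-stimulated level averaged 5940.4 CPM in gated cells, 5372 CPM in Izumo1r-zero twins and 7609 CPM in Ly6a-positive twins.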

How the data were processed

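Sorted CD8+ PD-1+ CD44+ cells of tumor-draining lymph nodes were profiled in 4 droplet libraries, 1 per treatment with 5 hashtagged mice each. The deposited values are raw UMI counts per gene and cell, which per the file headers the authors made with Cell Ranger 6.1.2 against mm10. Kept were barcodes in which 500 to 5000 genes were detected, UMIs did not exceed 40000 and mitochondrial transcripts stayed under 10%, 43971 of 47820. Mice were told apart by the valley in each hashtag's counts, and barcodes with several hashtags were left out of values per mouse. For some mice the number of cells depended on this choice. RT + αPD-L1 mouse 3 had 4819 cells, Control mouse 1 had 2163 and RT mouse 1 had 863. HTODemux gave these mice 2463, 457 and 112 cells. Other mice barely differed, such as RT mouse 3 with 2448 cells and 2456 by HTODemux. The rule genes, gene lists and comparisons were chosen with earlier results of these data known.

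Raw counts of gated cells were summed per mouse, mice with fewer than 10 cells of a population being dropped, and tested with edgeR 4.0.16 (TMM, filterByExpr, quasi-likelihood F test, Benjamini-Hochberg adjusted p below 0.05, R 4.3.3), all 20 mice in 1 fit and the 14 rule genes left out. Twins were compared in a fit with the mouse as a block. Scripts were tested on simulated data with the same spread for every gene. For RT + αPD-L1 against Control among 8939 genes, 96 of 100 genes changed by 1 log2 unit and 100 of 100 changed by 2 were recovered, and 6 unchanged genes were called. Alternatives were DESeq2 1.42.0, no filter, HTODemux of Seurat 5.3.0, changed clauses and leaving out each mouse. Ratios to other cells add 5 CPM. Named genes were, per comparison, up to 12 called genes in each direction with the largest change at a mean of 20 CPM or more in either group, up to 4 per list with the smallest p, and H2-Oa, Capn3 and Ccr7. Against other cells they were the 20 highest and 10 lowest ratios, and against twins up to 10 each way, on the same side in every mouse at 50 CPM or more. Predicted genes and V segments were counted only. Mice shared a library within a treatment, so p-values measure the spread between mice of 1 library per group. Gene positions come from GENCODE vM21 (GRCm38). Results for some genes are not reported here.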

Additional observations from a re-analysis of the deposited data

Results flagged for a closer look

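In each group of 5 mice the highest and lowest values of summed lists and named genes were compared with the rest by Dixon's test. Of 204 groups tested, 16 held a mouse that stood apart, where chance gives about 1 in 20. Values are CPM in gated cells.

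In Control, mouse 3 was highest for summed T cell receptor complex genes at 7027.8 and for Il7r at 127, and mouse 4 stood apart for summed glycolysis and growth genes at 6100.0. In RT, mouse 5 stood apart for summed homing genes at 3683.2. RT mouse 4, with 26 gated cells, stood apart for summed MHC class II pathway genes at 242.06, Hist1h1e at 48.4 and Hist1h2ab at 39.6.

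In αPD-L1, mouse 2 was highest for the interferon-stimulated genes Ifit3b at 19.0, Usp18 at 27.9, Ifit1 at 36.2 and Isg15 at 102. Mouse 5 stood apart for summed immediate early genes at 8986.5 and common gamma chain genes at 2841.2, and mouse 3 for summed effector genes at 2811.1. In RT + αPD-L1, mouse 1 was lowest for summed effector genes at 2819.2, and mouse 5 was highest for summed MHC class II pathway genes at 385.67.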

How the results depend on the processing

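Of the named genes that were called, those passing under every alternative run were 23 of 43 for RT + αPD-L1 against Control, 1 of 5 for RT, 3 of 5 for αPD-L1, 10 of 23 for RT + αPD-L1 against RT and 12 of 18 against αPD-L1, and 0 reversed. Without RT + αPD-L1 mouse 3, 13 of the 43 were lost. The 189 genes of RT + αPD-L1 against Control became 301 with no filter, 118 with HTODemux and 286 without the Ly6a clause. The 7 of RT became 4 with DESeq2, 65 with no filter, 3 with HTODemux and 15 with Tcf7 of 1 or more, and the 8 of αPD-L1 became 13 with DESeq2 and 68 with no filter. The 142 against RT became 240 with no filter, 81 with HTODemux and 219 without the Ly6a clause, and the 128 against αPD-L1 became 217 with no filter and 83 with HTODemux. Leaving out each mouse gave 96 to 218 genes against Control, 78 to 177 against RT, 50 to 159 against αPD-L1, 3 to 8 for RT and 6 to 10 for αPD-L1. The lowest of the first 3 came without RT + αPD-L1 mouse 3. For the interactions it gave 0 to 0. No filter gave 14 genes for each interaction, no Ly6a clause gave 1 against Izumo1r-zero twins (Gbp2, -0.64, adjusted p = 0.0468), and HTODemux gave 1 against Ly6a-positive twins. With no replicate block the interactions called 0 and 0. No paired analysis was possible because hashtag numbers do not pair mice across libraries in the treatment comparisons. Thinned, the gate share averaged 5.63% after RT + αPD-L1, 10.2% in Control, 8.998% after RT and 7.69% after αPD-L1. With HTODemux, RT averaged 14.5%, and RT mouse 1, at 9.82%, lay inside the RT + αPD-L1 range of 4.99% to 11.99%. The causes of these moves were not tested. The variants without single mice for shares and populations were chosen after seeing the data.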
